A study of Mus musculus with 3 samples.

Results

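The mouse Hox genes of the HoxA, HoxB, HoxC and HoxD clusters were examined in 3 lists of ChIP-seq peaks. The 38 members were taken by name and found in the GENCODE M1 annotation of the genome build mm9, where they are 38 of 22380 protein-coding genes. HoxA contributed 10 genes on chromosome 6, HoxB 10 genes on chromosome 11, HoxC 9 genes on chromosome 15 and HoxD 9 genes on chromosome 2. For each list, the peaks were counted in the body of every gene, at every gene start, over each cluster from the first to the last listed gene, and in 100 kb on each side of it.

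NE4C cells, a clonal neural stem cell line derived from the brain vesicles of p53-deficient mouse embryos, were grown without HTL (homocysteine thiolactone, the reactive form of homocysteine that modifies lysine). Chromatin was immunoprecipitated with antibodies to H3K79Hcy (homocysteinylated lysine 79 of histone H3), to KHcy (homocysteinylated lysine in any position) and to H3K4me3 (trimethylated lysine 4 of histone H3), the last as a mark of promoters. Each antibody gave 1 library from 1 cell line, so no difference between antibodies, genes or clusters has a replicate check, no p-value is given, and every 95% interval covers counting error only. The lists held 7387 H3K79Hcy peaks with 209335 reads, 7300 KHcy peaks with 276864 reads and 19339 H3K4me3 peaks with 787308 reads, and the total depth of the libraries is not in the lists.

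Hox genes encode homeodomain transcription factors that give cells of the embryo their position along the body axis. Genes at the 3′ end of a cluster are switched on early and act in the hindbrain and neck, whereas genes at the 5′ end act in the trunk, tail and limbs, and genes at the same place in different clusters form a paralogue group. In neural tissue they set the identity of hindbrain segments and spinal motor neurons, while the forebrain normally does not use them. A peak list gives no expression, so H3K4me3 over a cluster is not read here as activity of its genes.

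The sequences just upstream of 4 members are printed as examples of promoters with and without a listed peak at the gene start. The starts of Hoxb6, Hoxb8, Hoxc10 and Hoxd10 were the 4 Hox gene starts inside a KHcy peak, and that of Hoxb6 was the sole start inside peaks of all 3 lists. Hoxb8 and Hoxd10 are printed as examples of these starts. Hoxa4 had the promoter richest in CpG among the members and no peak of any list in its body, whereas Hoxd11 had few CpG in its promoter and its start in an H3K4me3 peak. Each line gives the 250 bases before the gene start in mm9, 5′ to 3′ on the strand of the gene, with the CpG dinucleotides (the letters CG, which read the same on both strands) in capitals. The spans are chr11:96142969-96143218 (plus strand) for Hoxb8, chr2:74528897-74529146 (plus) for Hoxd10, chr2:74517199-74517448 (plus) for Hoxd11 and chr6:52141753-52142002 (minus) for Hoxa4.
Hoxb8: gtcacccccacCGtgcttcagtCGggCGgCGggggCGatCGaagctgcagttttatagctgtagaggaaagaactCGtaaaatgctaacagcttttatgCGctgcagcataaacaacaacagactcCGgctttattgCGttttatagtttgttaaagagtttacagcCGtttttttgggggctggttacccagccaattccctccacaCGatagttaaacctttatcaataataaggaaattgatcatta
Hoxd10: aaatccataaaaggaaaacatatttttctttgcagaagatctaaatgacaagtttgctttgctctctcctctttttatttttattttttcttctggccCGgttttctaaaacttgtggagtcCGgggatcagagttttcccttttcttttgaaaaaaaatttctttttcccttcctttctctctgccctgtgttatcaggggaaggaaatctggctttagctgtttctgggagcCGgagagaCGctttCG
Hoxd11: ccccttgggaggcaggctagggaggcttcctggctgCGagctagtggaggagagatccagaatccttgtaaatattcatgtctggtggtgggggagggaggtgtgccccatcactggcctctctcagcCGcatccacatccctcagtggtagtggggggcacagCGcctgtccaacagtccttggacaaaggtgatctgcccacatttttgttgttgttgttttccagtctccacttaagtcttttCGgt
Hoxa4: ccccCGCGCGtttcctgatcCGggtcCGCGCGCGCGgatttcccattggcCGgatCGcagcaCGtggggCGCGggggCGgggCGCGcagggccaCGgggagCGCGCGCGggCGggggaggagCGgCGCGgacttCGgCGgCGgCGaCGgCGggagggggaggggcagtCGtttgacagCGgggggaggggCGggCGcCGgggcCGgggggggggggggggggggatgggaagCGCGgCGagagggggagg

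The printed stretch held 41 CpG in Hoxa4, 12 in Hoxb8, 5 in Hoxd10 and 4 in Hoxd11. CpG content was compared over 300 bases around each gene start (250 before and 50 after) as the ratio of the CpG found to the CpG that the base composition would give. Of all 22380 promoters, 95.1% held at least 1 CpG. The median ratio was 0.664 over the 38 Hox promoters (0.105 in Hoxa2 to 1.23 in Hoxa4) and 0.534 over all promoters. A ratio of at least 0.6 was found in 22 of the Hox promoters (57.9%) and in 45.2% of all promoters. Hox promoters whose start was in an H3K4me3 peak had a median ratio of 0.711 (n = 21) and the other Hox promoters 0.605 (n = 17), with ranges of 0.167 to 1.02 and 0.105 to 1.23 that overlapped widely.

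The clusters also hold microRNA genes, whose mature sequences are printed because 2 pairs of them, spread over different clusters, share a seed (bases 2 to 8, in capitals), the part that pairs with target transcripts. The sequences are those of RefSeq, given 5′ to 3′.
miR-10a-5p: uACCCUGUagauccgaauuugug
miR-10b-5p: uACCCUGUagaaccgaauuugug
miR-196a-5p: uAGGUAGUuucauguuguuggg
miR-196b-5p: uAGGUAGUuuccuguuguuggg
miR-615-3p: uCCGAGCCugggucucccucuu

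Among these microRNA genes, Mir10a of the HoxB cluster lay inside an H3K79Hcy peak (chr11:96178201-96179600) and an H3K4me3 peak (chr11:96175401-96179800). Mir10b of the HoxD cluster, which makes a microRNA with the same seed, lay in no peak, 9.61 kb from the nearest H3K4me3 peak. Mir196a-2 and Mir615 of the HoxC cluster lay inside H3K4me3 peaks. By contrast, Mir196a-1 of the HoxB cluster and Mir196b of the HoxA cluster lay in no peak, 6.82 kb and 0.437 kb from the nearest H3K4me3 peak. No microRNA gene of the clusters lay in a KHcy peak. The copies of one seed family were therefore found both inside and outside H3K4me3 peaks.

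Among the 38 members, 30 had an H3K4me3 peak in the gene body (78.9%, Wilson interval 63.7 to 88.9%), against 19.7% of all protein-coding genes. H3K79Hcy peaks overlapped 6 (15.8%, 7.44 to 30.4%), against 7.82% of all genes, and KHcy peaks overlapped 5 (13.2%, 5.75 to 27.3%), against 9.28%. The intervals of the H3K79Hcy and KHcy shares held the share of all genes, and that of H3K4me3 lay above it. They treat the genes as independent, although neighbouring genes of a cluster share peaks. They therefore cannot decide whether the Hox genes differ from all genes. Hox genes are short, with a median length of 4.08 kb against 15.4 kb for all genes. Among the protein-coding genes of at most 10 kb, where 33 of the 38 members belong, the shares with a peak in the body were 1.56% for H3K79Hcy, 2.59% for KHcy and 10.4% for H3K4me3. The Hox shares above are higher, but they include members longer than 10 kb. Of these, Hoxb3 (23360 bp) and Hoxc6 (13625 bp) had H3K79Hcy peaks, and Hoxb3 also had KHcy peaks.

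At gene starts, H3K4me3 again had the highest count. The start of 21 Hox genes (55.3%, 39.7 to 69.9%) lay inside an H3K4me3 peak, against 5.41% of all genes and 7.87% of the genes with a promoter CpG ratio of at least 0.6. For KHcy, 4 starts (10.5%, 4.17 to 24.1%) lay inside a peak, against 0.996% of all genes and 1.24% of those rich in CpG. For H3K79Hcy, it was the start of Hoxb6 alone (2.63%, 0.466 to 13.5%), against 0.416% of all genes and 0.376% of those rich in CpG. Within 1000 bp of a peak lay 26 Hox gene starts for H3K4me3, 6 for KHcy (Hoxb7 and Hoxb9 in addition to the 4 inside peaks) and 4 for H3K79Hcy (Hoxb6, Hoxb4, Hoxb3 and Hoxc8).

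By the number of lists, Hoxb3 and Hoxb6 had peaks of all 3 antibodies in their bodies. Another 7 members had peaks of H3K4me3 and of 1 homocysteinylation list, namely Hoxb4, Hoxc6, Hoxc8 and Hoxd13 with H3K79Hcy and Hoxb8, Hoxc10 and Hoxd10 with KHcy. H3K4me3 alone was found in 21 members. The remaining 8 had no peak of any list: Hoxa2, Hoxa4, Hoxa6, Hoxa11, Hoxa13, Hoxb13, Hoxd1 and Hoxd4. No member had an H3K79Hcy or a KHcy peak without an H3K4me3 peak. Hoxa2 patterns the second branchial arch, Hoxa11 and Hoxa13 the limb, kidney and genital tract, and Hoxb13 the tail end of the body, so the genes without a peak came from both ends of the clusters.

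**Figure D1:**
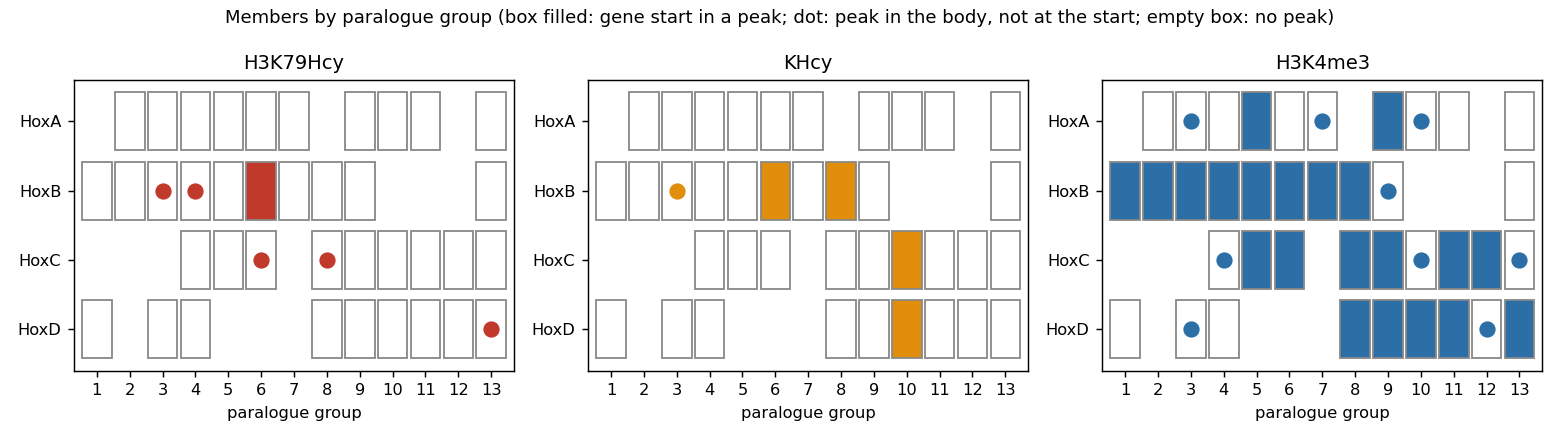
Peaks at the 38 Hox genes, with the paralogue group (1 to 13) on the x axis, the cluster on the y axis and 1 panel per antibody. A filled box marks a gene start inside a peak, a dot a peak in the body but not at the start, and an empty box no peak. H3K4me3 fills 21 boxes, 8 of them in the HoxB row and 2 in the HoxA row, while H3K79Hcy fills 1 and KHcy 4.

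The paralogue groups were compared in 3 classes. In groups 1 to 4, which act in the hindbrain and neck, 4 of 11 gene starts lay inside an H3K4me3 peak and 7 of 11 bodies were overlapped. In groups 5 to 8, which act in the thorax, the counts were 9 and 10 of 11. In groups 9 to 13, which act in the posterior trunk and limbs, they were 8 and 13 of 16. Of all protein-coding genes, 5.41% had their start inside an H3K4me3 peak and 19.7% had a peak in the body. The 4 starts of groups 1 to 4 were those of Hoxb1 to Hoxb4, with none in the other clusters. Body position and cluster therefore cannot be told apart in that class, and the differences between classes were not tested. All members of groups 5 and 8, 3 each, had their start in an H3K4me3 peak, and the same was true of 1 of 4 in each of groups 4 and 13. H3K79Hcy peaks were found in 2, 3 and 1 bodies of the 3 classes and KHcy peaks in 1, 2 and 2, counts too small to set the classes apart.

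The clusters differed in how much of them was covered. H3K4me3 peaks covered 76.4% of HoxC (21 peaks in 116 kb), 44.6% of HoxB (22 in 174 kb), 36.2% of HoxD (13 in 96.8 kb) and 21.9% of HoxA (10 in 98.5 kb). The cluster spans were chr15:102751534-102867274 for HoxC, chr11:96055630-96229570 for HoxB, chr2:74506367-74603200 for HoxD and chr6:52112350-52210874 for HoxA. In peaks per 100 kb, the values were 18.1 in HoxC (exact Poisson interval 11.2 to 27.7), 13.4 in HoxD (7.15 to 23.0), 12.6 in HoxB (7.93 to 19.1) and 10.1 in HoxA (4.87 to 18.7). The intervals of the number of peaks overlapped for every pair of clusters. The HoxB span includes the stretch between Hoxb13 and Hoxb9, where 38.4 kb in a row held no H3K4me3 peak. With HoxB taken from Hoxb9, a span chosen after seeing the data, 61 of the 66 cluster peaks stayed. The coverage of the 4 clusters together was then 52.0%, against 45.9%. The HoxB values, and their distance from those of HoxC, thus depend on the span. Peak widths had medians of 2600 bp in HoxB and HoxC, 1800 bp in HoxD and 2100 bp in HoxA and reached 15600, 12600, 6200 and 3600 bp, respectively.

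H3K79Hcy peaks covered 4.32% of HoxC and 4.02% of HoxB (5 peaks in each) and 1.03% of HoxD (1 peak). KHcy peaks covered 7.60% of HoxC (3 peaks), 7.59% of HoxB (6 peaks) and 2.48% of HoxD (1 peak). HoxA held no peak of either list, which at this length allows up to 3.74 peaks per 100 kb. The densities in HoxB, 2.87 H3K79Hcy and 3.45 KHcy peaks per 100 kb, are below this limit. Over the whole HoxB span, a difference from HoxA was therefore not detectable for either antibody. With HoxB taken from Hoxb9, all 11 H3K79Hcy peaks and 9 of the 10 KHcy peaks of the clusters stayed in a shorter span. The HoxB densities are then higher, and they were not compared with this limit. In HoxC the H3K79Hcy density was 4.32 per 100 kb, with an interval that reached from below this limit up to 10.1.

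**Figure D2:**
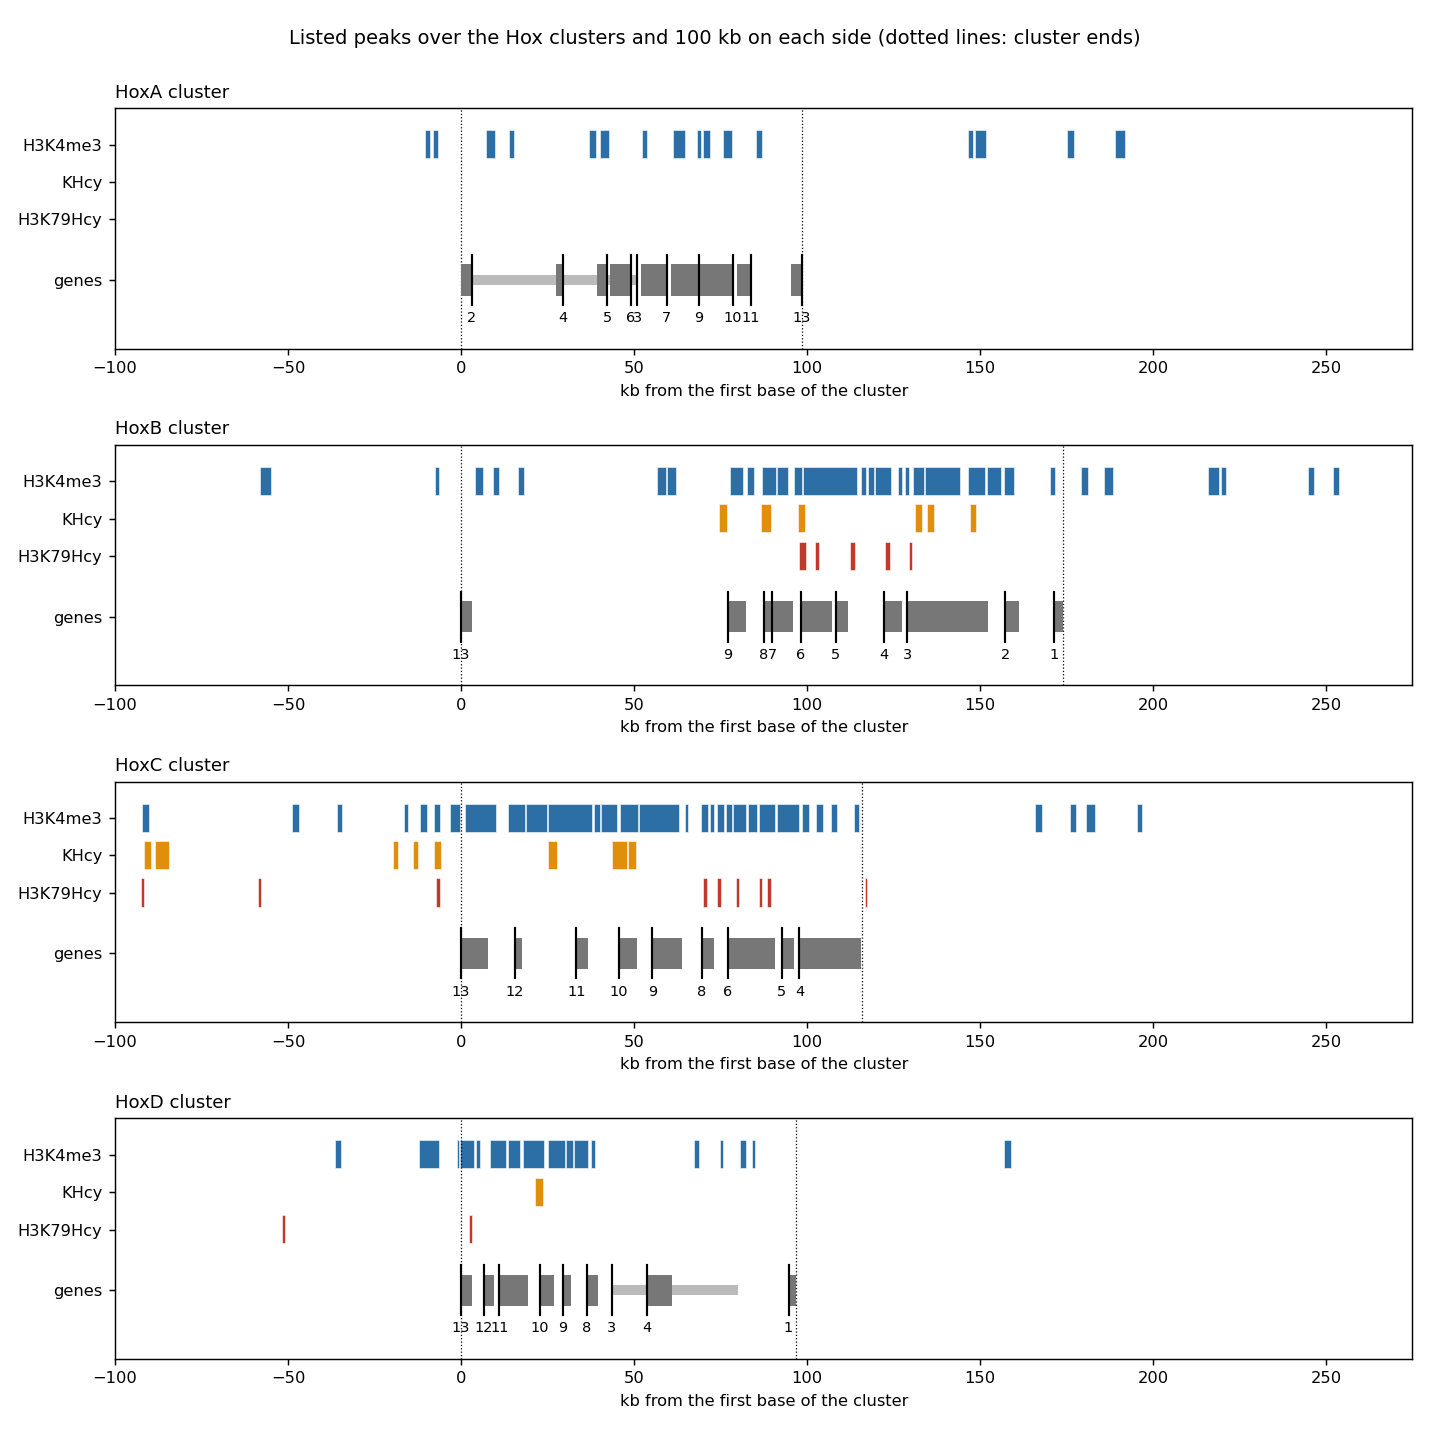
Map of the listed peaks over the 4 clusters and 100 kb on each side, drawn to 1 scale in kb from the first base of each cluster, with 1 row per antibody and the Hox genes (grey boxes, numbered by paralogue group, with a bar at the start) below; the long Hoxa3 and Hoxd3 annotations are drawn thinner. H3K4me3 peaks fill most of HoxC (76.4%) and thin out in HoxA (21.9%), and H3K79Hcy and KHcy peaks occupy different stretches of HoxC.

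In the HoxA cluster, H3K4me3 peaks overlapped Hoxa3, Hoxa5, Hoxa7, Hoxa9 and Hoxa10. The starts of Hoxa5 (fold 2.43) and Hoxa9 (fold 2.90) lay inside a peak, where fold means the reads of the peak over the background of the library in the same length. Hoxa3 is annotated over 49981 bp and overlaps Hoxa2, Hoxa4, Hoxa5 and Hoxa6, so that a peak at Hoxa5 was counted for Hoxa3 as well. Another start of Hoxa10, of a shorter transcript, lay inside a peak although its outermost start did not. The longest stretch without an H3K4me3 peak was 21.6 kb and held Hoxa4, and the coverage of single genes ran from 0% to 77.1% (Hoxa5), with a median of 8.15%.

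In the HoxB cluster, 8 of 10 gene starts lay inside an H3K4me3 peak, those of Hoxb1 to Hoxb8 without a break. Hoxb1, which specifies a hindbrain segment and its facial motor neurons, had a peak of 27 reads (fold 2.79). The highest fold at a HoxB start was 3.38, at Hoxb3. Hoxb9 had a peak in its body only, and Hoxb13, which lies apart from the others, had none. The longest stretch without a peak, 38.4 kb, lay between Hoxb13 and Hoxb9. Coverage of single genes had a median of 68.2% and reached 100% in Hoxb5.

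In the HoxC cluster, all 9 genes had an H3K4me3 peak in the body and 6 had it at the start. The starts of Hoxc4, Hoxc10 and Hoxc13 were outside the peaks but within 1000 bp of them. Coverage was 100% for Hoxc5, Hoxc11 and Hoxc12, it was lowest for Hoxc4 (39.1%), and the median was 89.7%. No stretch without a peak was longer than 5 kb. The space between the Hox genes of HoxC was covered to 75.2%, close to the 77.2% of the gene bodies, whereas in HoxB the values were 28.0% and 73.1%. The HoxB space includes the long stretch from the end of Hoxb13 (base 96058761) to the start of Hoxb9 (base 96132771). The part of this stretch in the contrast was not tested.

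In the HoxD cluster, H3K4me3 peaks lay mostly at the 5′ end. Hoxd13, Hoxd11, Hoxd10, Hoxd9 and Hoxd8 had their starts inside a peak, with folds of 2.90, 2.68, 2.99, 2.47 and 2.90. Hoxd12 had a peak in its body only. The body of Hoxd4 and that of Hoxd1 had none, and Hoxd3 was covered to 6.05%, with a shorter transcript starting inside a peak. A stretch of 28.8 kb without a peak held Hoxd4 and Mir10b. The peak of highest fold in any cluster was a narrow one of 600 bp and 19 reads between Hoxd3 and Hoxd1 (chr2:74590601-74591200, fold 4.59, interval 2.76 to 7.16), and its interval overlapped that of every other H3K4me3 peak in the clusters.

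**Figure D3:**
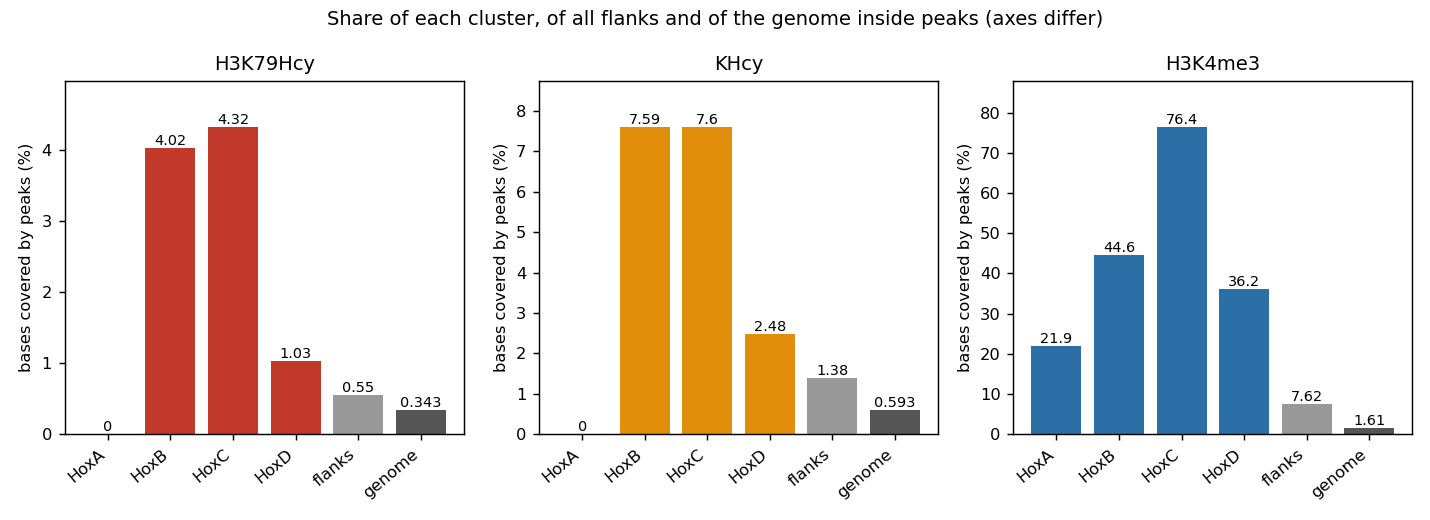
Percent of bases inside listed peaks (y axis, from 0, with a different scale for each antibody) for each Hox cluster, for the 100 kb flanks of the 4 clusters together and for the genome. For every antibody HoxC is the highest bar or level with HoxB, and HoxA has 0 for H3K79Hcy and KHcy and 21.9% for H3K4me3, above the 7.62% of the flanks. The HoxB bars include the long stretch between Hoxb13 and Hoxb9.

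The clusters were then compared with what lies around them. Over all 4 clusters (485 kb), there were 66 H3K4me3 peaks, 11 H3K79Hcy peaks and 10 KHcy peaks, or 13.6, 2.27 and 2.06 per 100 kb. The flanks held 29, 5 and 5 peaks, or 3.62, 0.625 and 0.625 per 100 kb. The density of the clusters was therefore 3.75 times that of the flanks for H3K4me3 (interval 2.39 to 6.03), 3.63 times for H3K79Hcy (1.16 to 13.3) and 3.30 times for KHcy (1.03 to 12.3). These intervals lay above 1 but came close to it for the homocysteinylation lists, where single peaks decide the ratio. They count every listed peak as a separate event, although many cluster peaks lie close together. They therefore cannot decide whether clusters and flanks differ. The H3K4me3 ratio depended on how peaks were delimited, at 1.65 when peaks within 3000 bp were merged (21 peaks in the clusters and 21 in the flanks) and 6.27 with lists of equal length. The genome as a whole held 0.756, 0.289 and 0.285 peaks per 100 kb.

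All 5 KHcy peaks of the flanks and 4 of the 5 H3K79Hcy peaks lay beside HoxC, and the flanks of HoxA and HoxB held none of either list. In the HoxD flank lies Evx2 and in the HoxA flank Evx1, homeobox genes of the same ancestral cluster, and the starts of both were inside H3K4me3 peaks.

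The surroundings of the clusters differed in all 3 lists. In the 5 Mb centred on HoxA, leaving out the cluster and its flanks, there were 6 H3K4me3 peaks, 1 KHcy peak and no H3K79Hcy peak. Around HoxB there were 98, 29 and 16, around HoxC 51, 16 and 16, and around HoxD 55, 44 and 30. Chromosome 6 as a whole was not poor in peaks, with 1.39 H3K4me3 and 0.785 H3K79Hcy peaks per 100 kb. Against its own surroundings, HoxA had the highest H3K4me3 density, 81.2 times, compared with 17.1 in HoxC, 11.7 in HoxD and 6.19 in HoxB. The order of the clusters thus depended on the reference. A low number of listed peaks around HoxA moved with its low coverage in all 3 lists, and its part in the difference between clusters was not tested.

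In the whole genome, the 25641 tiles of 100 kb had a median H3K4me3 coverage of 0% and a 99th percentile of 22.8%. The central HoxB tile had 58.8% (rank 72), the 2 HoxC tiles 52.4% and 47.2% (ranks 92 and 106), the main HoxD tile 35.8% (rank 135) and the main HoxA tile 24.2% (rank 238). The 2 HoxC tiles held 48.5 and 67.3 kb of the cluster, the rest being flank. All 5 tiles were above the 99th percentile, and the tiles that ranked above the central HoxB tile, the highest at 88.4%, touched none of the clusters.

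**Figure D4:**
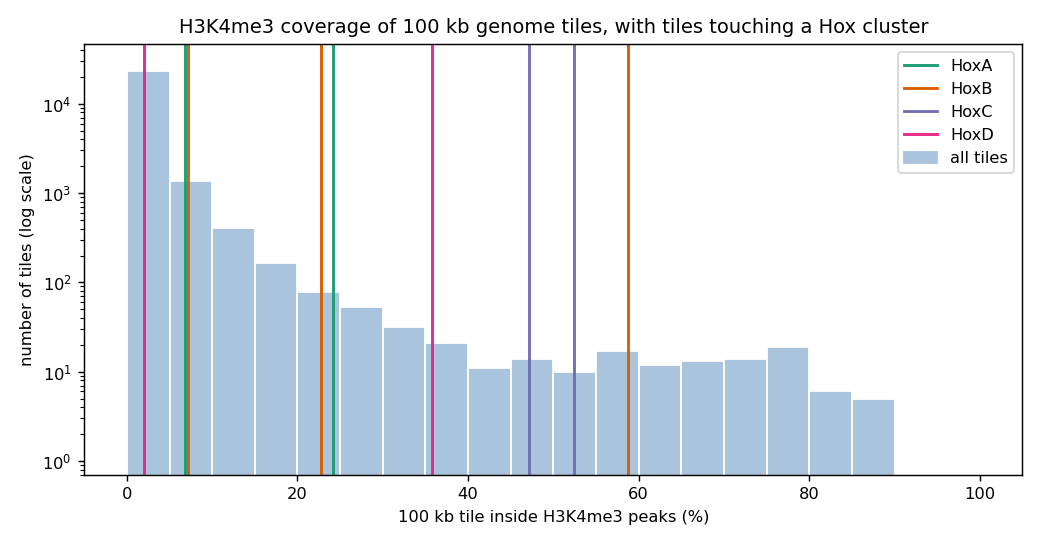
Number of 100 kb tiles of the genome (y axis, log scale) by the percent of the tile inside H3K4me3 peaks (x axis), with vertical lines for the tiles that touch a Hox cluster. Most tiles lie in the lowest bin, and the main tile of each cluster lies between 24.2% (HoxA) and 58.8% (HoxB).

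The H3K4me3 peaks of the clusters were wide. Of the 66, 19 (28.8%) spanned at least 4000 bp, compared with 5.93% of the whole list, and 4 spanned at least 10000 bp, compared with 72 of 19339 (0.372%). The widest ran over 15600 bp from within Hoxb6 across Hoxb5 (chr11:96154601-96170200, 321 reads, fold 2.98) and ranked 17 in the list. Next came a peak of 12600 bp at Hoxc11 (chr15:102776801-102789400, 234 reads, rank 26), one of 11600 bp at Hoxc9 that covers Mir196a-2 (chr15:102803001-102814600, 242 reads, rank 40), one of 10200 bp inside Hoxb3 (chr11:96189801-96200000, 210 reads, rank 65) and one of 9000 bp at Hoxc13 (chr15:102752601-102761600, 167 reads, rank 93). Hoxc9 and Hoxc13 are known for motor neurons of the thoracic cord and for hair, respectively. In fold the cluster peaks were only slightly above the rest, with medians of 2.85 and 2.59.

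H3K79Hcy peaks in the clusters resembled the rest of the list in width, with a median of 1200 bp in both. They had 19 to 46 reads and folds of 2.30 to 3.14, with a median of 2.63 against 2.70 for the other peaks of the list. Hoxb6, which acts in the thoracic region, had the widest, a peak of 2200 bp over its start that also had the most reads (chr11:96153201-96155400, 46 reads, fold 2.63, interval 1.92 to 3.50). A further peak of 25 reads lay in an intron of Hoxb6 (chr11:96158001-96159200, fold 2.62). The annotated start of Hoxb6 is that of a longer transcript, and the start of the shorter transcript (chromosome 11, base 96160269) lay inside an H3K4me3 peak but not inside a homocysteinylation peak.

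Also in HoxB, Hoxb4, which marks the posterior hindbrain, had an H3K79Hcy peak of 27 reads just downstream of its start (chr11:96178201-96179600, fold 2.42), the one that covers Mir10a. Hoxb3, a gene of the hindbrain, had one of 21 reads in an intron (chr11:96185001-96186000, fold 2.64). A peak of 22 reads downstream of Hoxb5 overlapped no Hox gene (chr11:96168201-96169400, fold 2.30). These 3 peaks did not differ in fold beyond their intervals.

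In HoxC, Hoxc6, a gene of the brachial spinal cord, held 3 H3K79Hcy peaks, more than any other member, with 20, 19 and 29 reads and folds of 3.14, 2.98 and 3.04 (chr15:102831001-102831800, chr15:102837801-102838600 and chr15:102840001-102841200). Hoxc8, needed for thoracic vertebrae and limb motor neurons, had a peak of 20 reads over a coding exon (chr15:102821601-102822600, fold 2.51). A peak of 23 reads lay between Hoxc8 and Hoxc6 (chr15:102825601-102826800, fold 2.41). All 5 H3K79Hcy peaks of HoxC thus lay from Hoxc8 to Hoxc6. In HoxD, Hoxd13, a gene of the digits, had the sole H3K79Hcy peak, with 21 reads at its 3′ end (chr2:74508601-74509600, fold 2.64).

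KHcy peaks had 31 to 60 reads and folds of 1.92 to 2.76, with a median of 2.24 against 2.25 for the other peaks of that list. Hoxb8, a gene of the spinal cord, had one over its start (chr11:96142201-96145200, 49 reads, fold 2.20), and Hoxb6 had one over its start (chr11:96153001-96155000, 34 reads, fold 2.29). Hoxb3 held 3, with 31, 41 and 31 reads and folds of 2.09, 2.76 and 2.32 (chr11:96186801-96188800, chr11:96190401-96192400 and chr11:96202801-96204600). One further peak of HoxB, just upstream of Hoxb9 (chr11:96130201-96132600, 47 reads, fold 2.64), was the sole KHcy peak of the clusters that overlapped no H3K4me3 peak.

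The paralogues Hoxc10 and Hoxd10, which take part in the patterning of lumbar motor neurons, both had a KHcy peak over their starts. That of Hoxc10 was 4200 bp wide (chr15:102795201-102799400, 60 reads, fold 1.92), and it covered a start that lay between H3K4me3 peaks. A further KHcy peak lay in the gene (chr15:102799801-102802000, 39 reads, fold 2.39). The peak over the start of Hoxd10 had 38 reads (chr2:74527801-74530200, fold 2.13). Hoxa10, the remaining member of the group, had none. A peak of 39 reads lay upstream of Hoxc11 (chr15:102776801-102779200, fold 2.19). All 3 KHcy peaks of HoxC thus lay between Hoxc12 and Hoxc9, and none of them reached the stretch from Hoxc8 to Hoxc6 that held the H3K79Hcy peaks.

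**Figure D5:**
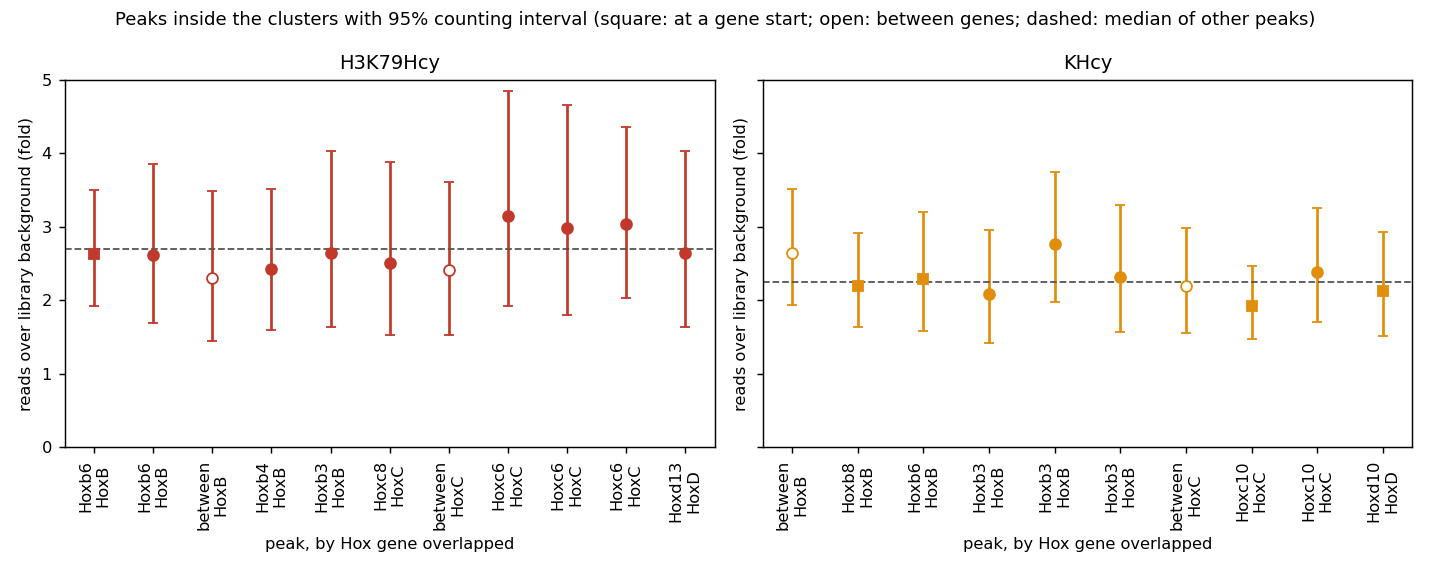
Fold over the library background (y axis) of the 11 H3K79Hcy peaks and the 10 KHcy peaks inside the clusters, named by the Hox gene they overlap, with the 95% Poisson interval of the reads. The dashed line is the median of the other peaks of the list (2.70 and 2.25), and the intervals of the peaks overlap each other and this line.

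The lists were finally compared with each other inside the clusters. All 11 H3K79Hcy peaks overlapped an H3K4me3 peak (100%, Wilson interval 74.1 to 100%), compared with 15.4% of the whole H3K79Hcy list. Of the 10 KHcy peaks, 9 did (90%, 59.6 to 98.2%), compared with 16.5% of the whole list. H3K4me3 peaks covered 45.9% of the clusters against 1.61% of the genome, and the part of this coverage in the overlaps was not tested. H3K79Hcy and KHcy overlapped each other at 1 place, the start of Hoxb6, which was 9.09% of the H3K79Hcy peaks (1.62 to 37.7%) and 10% of the KHcy peaks (1.79 to 40.4%), compared with 13.9% and 12.9% of the whole lists. A Hoxb3 pair came within 0.800 kb, and the H3K79Hcy peaks of HoxC were 19.6 to 38.0 kb from the nearest KHcy peak. The base composition of the peaks moved with these results, since cluster peaks had median CpG ratios of 0.364, 0.469 and 0.421 (H3K79Hcy, KHcy and H3K4me3) against 0.146, 0.158 and 0.187 in the other peaks, and its part in them was not tested.

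Genes that act with or upstream of the Hox genes were looked up in the same way, with the shares of all genes for comparison (bodies with a peak 19.7% for H3K4me3, 7.82% for H3K79Hcy and 9.28% for KHcy). Of 9 TALE homeodomain cofactors, which bind DNA together with Hox proteins, 5 had an H3K4me3 peak in the body, 1 an H3K79Hcy peak (Pbx3) and 2 a KHcy peak (Pbx3 and Pknox2), and the start of Meis1 lay inside an H3K4me3 peak. Of 14 upstream regulators, 8 had an H3K4me3 peak in the body, and the starts of Gbx2 and Cyp26a1 (an enzyme that breaks down retinoic acid) lay inside one. In this list, 1 body had an H3K79Hcy peak (Aldh1a2) and 3 had a KHcy peak (Cdx2, Rarg and Cyp26a1). The start of Cyp26a1 lay inside a KHcy peak. Of 20 Polycomb and Trithorax genes, whose products keep Hox genes off or on, 10 had an H3K4me3 peak in the body, 2 an H3K79Hcy peak (Suz12 and Jarid2) and 4 a KHcy peak. Among these, the start of Cbx2 lay inside a KHcy peak. Of 15 other homeobox genes of this kind, 8 had an H3K4me3 peak, with 5 at the start (Evx1, Evx2, Gsx1, Gsx2 and Mnx1). Another 1 body had an H3K79Hcy peak (Dlx2) and 1 a KHcy peak (Gsx2), each beside an H3K4me3 peak in the same body. The shares of starts inside an H3K4me3 peak were 1 of 9, 2 of 14, 2 of 20 and 5 of 15, compared with 21 of 38 in the Hox clusters and 5.41% of all genes. These lists are small, and none of the counts was tested.

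The label of the cells was checked with H3K4me3 at the starts of marker genes, since no expression values were used. A peak was found at 2 of 10 neural stem cell markers (Nes and Sox9) and 2 of 5 forebrain markers (Otx2 and Six3), where 5.41% of all gene starts had one. None was found at the starts of 3 pluripotency, 3 mesoderm, 3 neuron or 3 glia markers, and 1 of 3 endoderm markers (Sox17) had one. Most neural stem cell markers thus had no H3K4me3 peak at the start in this list, and the absence of a peak at a Hox gene cannot be read as the absence of the mark.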

How the data were processed

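ChIP-seq peak lists of NE4C cells grown without HTL were used, with 1 library per antibody. Per the methods, the authors used Bowtie 2 for alignment to mm9 and MACS (1.4.2 in the submitters' processing notes) for peaks, and filtered these through control input, whereas a figure legend names SICER. For each peak the authors deposited the position, the length, a count of reads that is not normalized for depth or length, and a score. For peaks of 1 window (200 bp), the deposited score is minus the natural log of the Poisson probability of the reads, given 1 background value for the library (1.59, 1.49 and 1.38 reads per window for H3K79Hcy, KHcy and H3K4me3). The planned false discovery rate is not a column of the lists, so the stricter setting kept scores that exceeded the minimum by at least ln(100).

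Positions were counted from 1. Genes came from GENCODE M1 and sequences from the NCBIM37 (mm9) genome, and microRNA sequences from RefSeq (GRCm38.p6), whose coordinates were not used. The 2 annotated entries of Hoxa3 were joined. A gene start is the outermost annotated start, and overlap required 1 bp. Overlapping genes share peaks. Shares carry 95% Wilson intervals, and reads and densities exact Poisson intervals. The density ratio carries an exact binomial interval.

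The members, gene lists and comparisons were chosen with earlier results of these data known. By rule, all members were accounted for, every H3K79Hcy and KHcy peak of a member was given, with the 5 widest H3K4me3 peaks of the clusters, and other genes were named from the lists or where a peak overlapped them. The H3K4me3 peak of highest fold, and those at Hoxb1, were named after their values were seen. Alternatives were a stricter score, merged peaks, lists of equal length, overlap of at least 50% of the peak, flanks of 50 kb, 2000 bp upstream added and starts within 1000 bp. Any transcript start and a HoxB span from Hoxb9 were added after seeing the data. Functions were tested on simulated data. Input, IgG, HTL-treated and RNA-seq libraries were not analysed here, and some listed items are not reported here. Analyses used Python 3.11.15, numpy 2.4.6, pandas 2.3.3, scipy 1.17.1 and matplotlib 3.10.9.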

Additional observations from a re-analysis of the deposited data

How the results depend on the processing

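Of 98 recomputed values, 77 stayed within 1.5 times the count or within the interval of the share or ratio reported, and 21 did not. With the stricter score, H3K79Hcy kept 2 peaks in the clusters, in 2 genes (Hoxb6 and Hoxc6), covering 0.701%, of which 50% overlapped KHcy, while KHcy kept 9 of 10. The flanks then held 0 H3K79Hcy, 3 KHcy and 17 H3K4me3 peaks, so no H3K79Hcy density ratio could be formed, and H3K4me3 covered 43.4% of the clusters. Merging peaks within 3000 bp gave 21 H3K4me3 peaks, a coverage of 55.3% and a density ratio of 1.65, and an H3K79Hcy coverage of 4.12%. With 7300 peaks per list, H3K4me3 had 38 peaks in the clusters, 10 in the flanks, a coverage of 26.0% and a ratio of 6.27. Flanks of 50 kb held 2, 3 and 18 peaks (H3K79Hcy, KHcy and H3K4me3). Starts within 1000 bp of a peak numbered 4 for H3K79Hcy. A HoxB span from Hoxb9, chosen after seeing the data, gave an H3K4me3 coverage of 52.0% over the 4 clusters together.

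Of the 11 H3K79Hcy peaks of the clusters, 2 passed the stricter score (18.2%), compared with 31.0% of that list, and of the 10 KHcy peaks 9 did, compared with 41.0%. Depth limits what can be said of HoxA and of single genes, since the 11 H3K79Hcy peaks of the clusters held a median of 22 reads. No paired analysis was possible because each antibody has 1 library, and for the same reason no replicate could be left out.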

Other observations

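The stretch upstream of Hoxc13, in the left flank of HoxC, held peaks of all 3 lists at 1 place outside the Hox genes. There an H3K79Hcy peak (chr15:102744401-102745400, 22 reads, fold 2.76) lay inside a KHcy peak (chr15:102743601-102745800, 37 reads, fold 2.26), and both overlapped an H3K4me3 peak. The CpG ratio of the H3K79Hcy peak was 0.0561, compared with a median of 0.364 in the cluster peaks of that list. In 100 kb tiles of the genome, the central HoxB tile ranked 107 of 25641 by H3K79Hcy coverage (7%) and 132 by KHcy coverage (11.4%). The HoxC tile that starts at Hoxc13's side ranked 111 by KHcy coverage (12%), and the next ranked 163 by H3K79Hcy coverage (5.60%). Only 48.5 kb of the former tile and 67.3 kb of the latter lie in the cluster. KHcy peaks of the flank upstream of Hoxc13 are part of the 12%.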
